A study of Danio rerio with 12 samples.

Results

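The brain transcriptome of untreated adult zebrafish (Danio rerio) was described from the 3 arrays whose titles name them as controls (C), out of 12 arrays in the series. Members were chosen by that label alone, and no value of any other array was used. Each C array carried Cy3-labelled RNA from a pool of 3 whole brains, with 9 fish in the group, and RNA integrity numbers were above 7. The fish received no injection. The labels place the C fish in the thermal gradient and give the time as 24 without a unit, whereas the methods keep controls outside the gradient, and the arrays could not settle which held. The fish were not given a strain, sex or exact age in the sources used here. The pools are called pools 1, 2 and 3 after their titles, and an order between them has no meaning. The series as a whole addressed how a viral mimic and access to a thermal gradient change the brain transcriptome, and the C arrays give the state of the tissue without injection.

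The adult zebrafish brain holds neurons, radial glia that line the ventricles and take on many roles that astrocytes have in mammals, myelinating oligodendrocytes, microglia and vessels. Neurons are classed by the transmitter they release, which needs a synthesis enzyme, a vesicular transporter and, in most systems, an uptake transporter, while receptors sit on the receiving cell. Neuropeptides are cut from precursor proteins in secretory granules, and many are made in small hypothalamic cell groups, so their transcripts can be rare in RNA from a whole brain.

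Signal was read as spot brightness on a 44K single-colour array. It is given below as scaled log2 signal, the log2 of the scanner's processed signal minus the 75th percentile of the same array, so that 0 is the 75th percentile and a step of 1 is a doubling. A probe counted as detected where the scanner software set it well above background on all 3 arrays, and a gene where at least 1 of its probes was. Probes differ in how well they bind their transcript, so the order of brightness is not an order of abundance. Values after ± are s.d. over the 3 arrays throughout. Each pool was read on 1 array, so this spread holds technical differences between arrays as well as differences between pools. It is a spread between pools of 3 brains, not between single fish. Whether the pools drew on fish kept together is not given. In RNA from a whole tissue, fewer cells of a type and less RNA per cell cannot be told apart.

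The 3 arrays differed in brightness. Their 75th percentiles were 125, 392 and 264 intensity units on the arrays of pools 1, 2 and 3, and 24.5%, 40.9% and 32.9% of the features were well above background. The lowest scaled log2 signal that the software still called well above background was -0.33 for pool 1, -2.18 for pool 2 and -1.35 for pool 3. Pool 1 thus had the highest limit, and genes called in pools 2 and 3 but not in pool 1 were of more than 1 kind. Some, such as aqp4 (-0.80, -1.86 and -0.73), lay below that limit on every array, whereas others, such as nucb2b (-1.96, 1.44 and 1.48), lay above it in pools 2 and 3 and far below in pool 1. The 95th percentile of the negative control spots was 34.3, 313 and 53.5 intensity units in pools 1, 2 and 3. In pool 2 it was near the array's 75th percentile, so calls at low scaled signal in that pool lay below it. Both the counts on all 3 arrays and the counts without pool 1 given below include such calls, for example glsa, at -0.63 in pool 2. No spot was saturated. Each array lay on a slide of its own among the C arrays, so slide and pool cannot be told apart.

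Of 43603 probes, 9833 were detected on all 3 arrays (22.6%) and 25114 on none (57.6%). A further 4133 probes were called in pools 2 and 3 but not in pool 1, and 3462 in pool 2 alone, against 49 called in pools 1 and 3 alone. A current gene symbol could be given to 16568 probes, which made 11484 named genes. Of these, 4989 were detected on all 3 arrays (43.4%), and 7778 on at least 1 (67.7%). The share of 43.4% is the background for each gene list below, and 56.3% is the same share without pool 1. Of 4097 named genes with more than 1 probe, all probes were detected for 749, only some for 1555 and none for 1793. Where only some were detected, the level given below rests on those probes alone. Detected genes had a median scaled log2 signal of 1.96, and 90% of them lay under 4.57. Among the 4989, pool 1 was highest for 2167, pool 3 for 2062 and pool 2 for 760, and pool 2 was lowest for 2634. The highest or lowest pool named for single genes below is to be read beside these counts.

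The tissue label was set against marker genes. Neuron, radial glia and myelin genes were present in every pool, and so were transcripts of other head tissues. The skeletal muscle list had 29 of 34 members detected, skin and epithelium 23 of 27, lens 20 of 23, and retina and pineal 22 of 40. Transcripts known from those tissues were thus part of what the arrays of whole brain read, and values for each are given further on. Their part in the signal of any single brain gene was not tested.

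**Figure D1:**
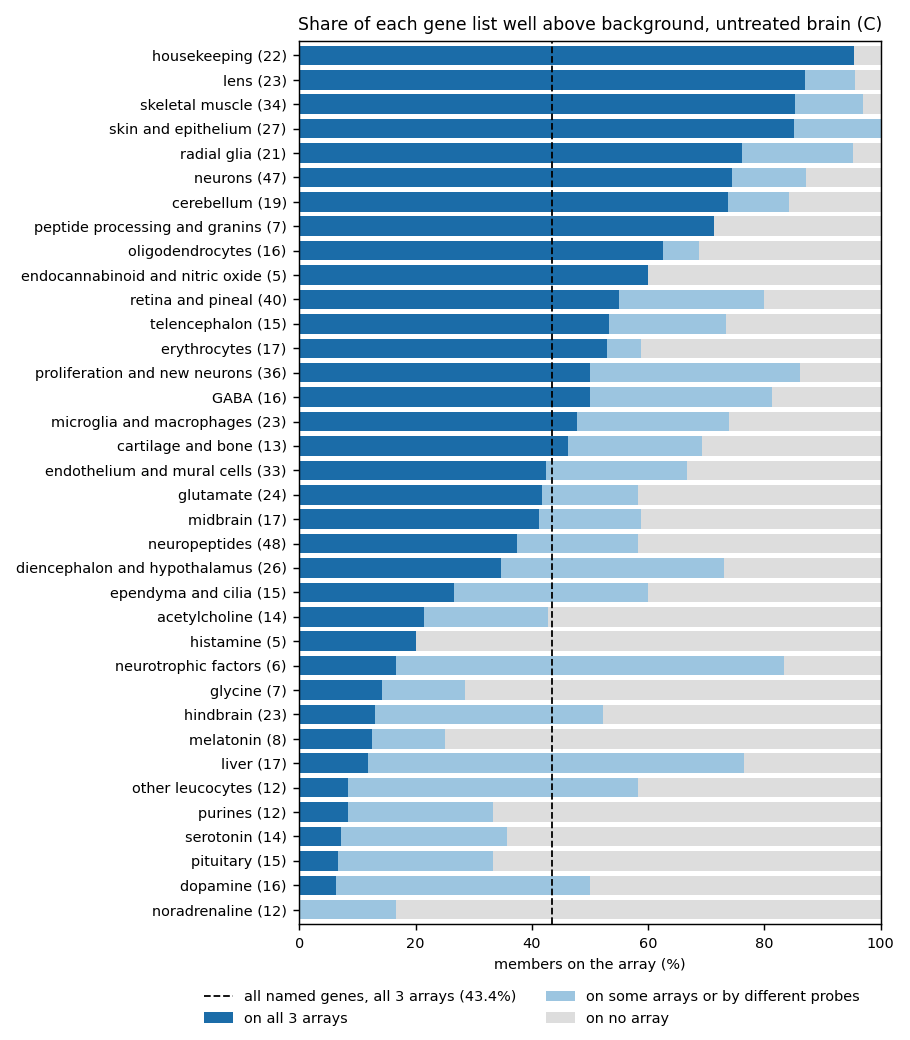
Share of the members of each gene list (y axis, with the number of members on the array in brackets) that were well above background on all 3 C arrays (dark), only on some arrays or by different probes (light) or on none (grey), in % of the members on the array (x axis). The dashed line is the 43.4% of all named genes; housekeeping, lens, muscle, skin, radial glia and neuron genes lie farthest to its right, and noradrenaline, dopamine, pituitary and serotonin genes farthest to its left.

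Ribosomal protein genes were the most frequent among the brightest named transcripts. Among the 20 brightest named genes, 12 carried symbols of ribosomal proteins of the small or large subunit, and so did 46 of the 100 brightest. On the array as a whole, 74 of 78 such symbols were detected. nme2b.2, a nucleoside diphosphate kinase, read 10.69, 9.02 and 9.70 in pools 1, 2 and 3 and was the brightest named gene. rps2, of the small ribosomal subunit, averaged 9.45 ± 0.63, and rpsa, the laminin-binding protein of the same subunit, 9.19 ± 0.88. rack1, a ribosome-bound scaffold protein, was steadier at 9.01 ± 0.14. Pool 1 was the highest of the 3 for nme2b.2, rps2 and rpsa, with no such gap for rack1.

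Other genes among the 20 included rps25, rpl23, rpl24, rps27a, rps27.1, rpl13a, rpl11, rpl22, rplp2b and rps9, atp5l of the mitochondrial ATP synthase, tpt1, nme2b.1 and the kinase gene tbk1, which averaged 8.43 ± 0.30. eno3, the enolase of skeletal muscle, read 9.45, 9.06 and 9.50. It was the only gene of the 20 on a list of another tissue. Of the 100 brightest genes, 5 were on the muscle list, 3 on the lens list, 3 on the skin list and 9 on the housekeeping list, and none was on a list of neurons, glia, transmitters or neuropeptides. Only named genes enter this ranking, and 9 of the 20 brightest probes had no symbol here. The 100 brightest features held 29.3%, 22.0% and 24.7% of the summed signal in pools 1, 2 and 3.

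Neurons were represented by 35 of 47 genes on the array (74.5%, against 43.4% of all named genes). The synapse genes had 21 of 28 detected, and those of the cytoskeleton and neuronal RNA binding 14 of 19. tubb2b, a neural β-tubulin, was the brightest of the list at 6.35, 7.06 and 7.75. nsfa, the ATPase that takes SNARE complexes apart, read 5.81, 5.68 and 6.69, and vamp2, a SNARE protein of the synaptic vesicle, 5.54, 5.42 and 6.30. Pool 3 was the highest for these 3 genes. snap25a, the SNARE protein of the presynaptic membrane, read 5.75, 4.77 and 5.53, and stxbp1a, which regulates that fusion machinery, 6.42, 4.80 and 5.79, with pool 2 lowest for both. stmn2b and rbfox1, a growth-associated tubulin-binding protein and a splicing regulator, averaged 5.15 ± 0.82 and 5.13 ± 0.49. Among the members that no array called were elavl3, a standard pan-neuronal marker, syn1, syt1b, map1b, nrxn1a and stmn4. With array 1 left out, 39 of 47 were detected.

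Radial glia genes were detected in 16 of 21 cases (76.2%). slc1a2b, the glial glutamate transporter, read 5.89, 5.65 and 6.34. glulb and glula, which encode glutamine synthetase, averaged 5.02 ± 0.42 and 4.60 ± 0.89, and vim, the intermediate filament vimentin, 4.81 ± 0.20. cyp19a1b, the brain aromatase that fish radial glia carry, read 4.16, 3.50 and 4.07. gfap, the defining glial filament, was detected with low signal, at 0.12, 0.38 and 1.00. The gap junction gene gja1b varied most in the list, at 3.61, 0.80 and 2.33. fabp7b, sox2 and aqp4 were called in pools 2 and 3 only, and hepacama on no array.

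Oligodendrocytes had 10 of 16 genes detected (62.5%, against 43.4% of all named genes), with 8 of 10 for myelin and 2 of 6 for the lineage. Without pool 1, 11 of 16 were detected (68.8%, against 56.3%). Where signal above the negative controls was required on all 3 arrays, 8 of 16 were detected, beside 47.6% of all named genes. Where a majority of a gene's probes had to be called, 6 of 16 were (37.5%, against 31.6%). The excess over all named genes was thus smaller under the last rules. plp1b, the myelin proteolipid, read 4.07, 4.27 and 4.99, and cldnk, a claudin of zebrafish myelin, 3.1, 3.71 and 4.24, with pool 3 highest for both. mpz, a major myelin protein of fish, averaged 2.37 ± 0.75. olig2 and sox10, the lineage factors, averaged 1.53 ± 0.30 and 1.15 ± 0.35.

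Microglia and macrophages had 11 of 23 genes detected (47.8%), near the share of all named genes. apoeb, apolipoprotein E, was nearly level over the pools at 5.86, 5.85 and 6.07. coro1a, an actin-binding protein of leucocytes, averaged 3.92 ± 0.17, c1qc, a chain of complement C1q, 3.07 ± 0.39, and mpeg1.1, perforin-2 of macrophages, 1.51 ± 0.17. The receptor gene csf1ra, the adaptor genes tyrobp and hcst, slc7a7, havcr1 and ctss2.1 were called on no array. Of 12 genes of other leucocytes, mmp9 alone was detected on all 3 arrays, at 0.67 ± 0.34, and 6 more were called on some. Without pool 1, 5 of 12 were detected.

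Mural and meningeal genes were detected more fully than those of endothelium, at 10 of 14 (71.4%) against 4 of 19 (21.1%), beside 43.4% of all named genes. A further 7 of the 19 endothelial genes were called on some arrays. The fish-specific ependymin gene epd, a product of the meninges, read 6.18, 6.14 and 6.38. acta2 and tagln, contractile genes of smooth muscle, averaged 5.36 ± 0.21 and 4.94 ± 0.10. mfsd2ab, related to the lipid transporter of the mammalian blood-brain barrier, read 6.32, 5.60 and 5.83, and tek, an endothelial receptor kinase, averaged 2.71 ± 0.45. kdrl, the defining endothelial receptor, was called on no array. klf2a was not counted because its spot in pool 2 was marked as an outlier, and it read 3.59 and 2.78 in pools 1 and 3.

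Ciliated cells had 4 of 15 genes detected, with none above 0.82 on average, and 7 of 15 without pool 1. Genes of neurogenesis were detected in 14 of 21 cases and those of proliferation in 4 of 15. neurod1, a neuronal differentiation factor, read 5.69, 4.81 and 4.91. dlx1a, of forebrain inhibitory neurons, averaged 3.49 ± 0.74, and sox11b, of young neurons, 3.02 ± 0.66. mcm7, a subunit of the replicative helicase, read 3.35, 4.15 and 4.62, with pool 1 lowest. The other genes of the proliferation list on all 3 arrays were tuba5, stmn1a and mcm6, and a further 9 of the 15 were called on some arrays. tuba5, a tubulin gene, and stmn1a, which is also on the neuron list, do not mark proliferation alone.

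**Figure D2:**
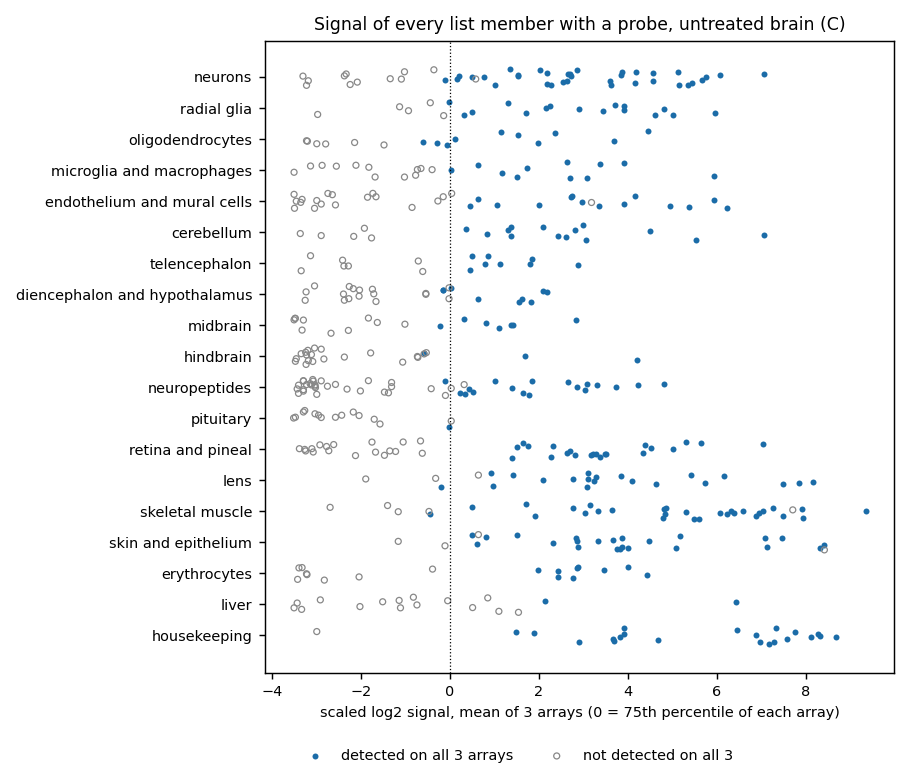
Scaled log2 signal (x axis, mean of the 3 C arrays, 0 at the 75th percentile of each array, dotted) of every member with a probe in 19 gene lists (y axis); filled points were detected on all 3 arrays and open points were not. Neuron and radial glia genes reached 7.05 and 5.96, and muscle, skin and lens genes 9.34, 8.40 and 8.15; open points at high signal had an outlier spot on 1 array.

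Genes that mark brain regions were detected in different shares. The cerebellum list had 14 of 19 members detected (73.7%), the telencephalon 8 of 15, the midbrain 7 of 17, the diencephalon and hypothalamus 9 of 26 and the hindbrain 3 of 23. Without pool 1, the counts were 14 of 19, 10 of 15, 10 of 17, 15 of 26 and 7 of 23, so that the share for the diencephalon and hypothalamus (57.7%) was then near the 56.3% of all named genes. pvalb7, a parvalbumin of Purkinje cells, read 6.98, 6.88 and 7.29. calb2a, a calretinin, read 5.41, 5.43 and 5.71, and zic1, a factor of granule cells, 4.68, 4.15 and 4.63. The s.d. of these cerebellar genes over the pools was 0.21, 0.17 and 0.29, while the 14 detected genes of the list had a median s.d. of 0.45, against 0.35 for all detected genes. On the cerebellum list, 3 of 19 genes were called on no array, among them gabra6a, of a GABA receptor subunit, and en1a. In the telencephalon, bhlhe22 averaged 2.88 ± 0.39, sp9 1.79 ± 0.41 and eomesa, a pallial factor, 1.13 ± 0.12, while foxg1a, which defines the forebrain, read 0.64, 0.18 and 0.66.

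For the diencephalon, lhx9 averaged 2.17 ± 0.61, six3b 2.08 ± 0.51 and six3a 1.83 ± 0.21. gata2a, a factor of midbrain inhibitory neurons, averaged 2.84 ± 0.53, otx2b 1.42 ± 0.77, and en2a, of the midbrain-hindbrain boundary, -0.22 ± 1.00. In the hindbrain, mafba read 3.99, 4.30 and 4.35. It was followed by hoxb3a at 1.69 ± 0.74 and hoxa4a at -0.58 ± 0.82, and 11 of the 23 hindbrain genes were called on no array. mafba is also known from macrophages, so it does not mark the hindbrain alone.

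GABA, the main inhibitory transmitter, had 8 of 16 genes detected (50%, against 43.4% of all named genes). All 3 synthesis and breakdown genes were detected. abat, which breaks GABA down, read 6.30, 6.15 and 6.65, gad2, which makes it, 2.16, 1.87 and 2.83, and gad1b, its paralogous enzyme, 2.28, 2.07 and 2.23. The values of gad1b come from 1 of its 4 probes, the only one detected. slc32a1, the vesicular transporter of GABA and glycine, read 3.65, 2.57 and 3.59, with pool 2 lowest. slc6a1b and slc6a1a, which take GABA up, averaged 6.19 ± 0.38 and 4.09 ± 0.41, while the other uptake genes, slc6a11a and slc6a22.2, were called in pool 2 alone and on no array. Of 8 receptor subunits, gabra4 (2.25 ± 0.41) and gabrb2a (1.83 ± 0.67) were detected on all 3 arrays and 4 more on some.

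Glutamate, the main excitatory transmitter, had 10 of 24 genes detected (41.7%, against 43.4% of all named genes). Synthesis and uptake gave 6 of 7, led by slc1a2b and the glutamine synthetase genes described above, with slc1a3a at 2.59 ± 0.15. Those leading genes are also on the radial glia list, and glutamine synthetase uses glutamate rather than making it. The glutaminase gene glsa, of glutamate synthesis, was detected by 1 of 2 probes with low signal, at -0.08, -0.63 and 0.46. None of the 3 vesicular transporter genes on the array, slc17a6a, slc17a6b and slc17a8, was called on any array. Of 14 receptor subunits, grin1a, the obligatory subunit of NMDA receptors, read 3.72, 3.93 and 4.34. gria2b, an AMPA receptor subunit, averaged 2.4 ± 0.42, and grin1b -0.01 ± 0.29.

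For glycine, the neuronal transporter gene slc6a5 read 2.08, 1.28 and 2.94, and none of the receptor subunit genes glra1, glra3, glra4a and glrbb was detected on all 3 arrays, nor was gphnb, of the receptor scaffold gephyrin. Of 7 glycine genes, 1 was detected, and 2 without pool 1. Acetylcholine had 3 of 14 genes detected, and 5 of 14 without pool 1. ache, which breaks acetylcholine down, read 1.45, 1.26 and 2.26. Its synthesis gene chata, at -0.38, 0.64 and 1.67, and its vesicular transporter gene slc18a3b, at -0.54, -0.78 and 0.26, were called in pools 2 and 3 only. Of 10 receptor genes, chrna5 averaged 0.63 ± 0.22 and chrm2a 0.48 ± 0.37, and 7 were called on no array.

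The monoamines were hardly seen. Dopamine had 1 of 16 genes detected, mao, the monoamine oxidase gene, at 3.1, 2.71 and 3.1. th and th2, the tyrosine hydroxylase genes, were called in pool 2 alone, at -1.86 and -1.93. Both values lay below the 95th percentile of the negative controls of that array. The uptake transporter slc6a3 was called on no array, and of 7 dopamine receptor genes 3 were called on some arrays and 4 on none. Noradrenaline had 0 of 12 detected. dbh, its synthesis gene, was called on no array, phox2a, a factor of noradrenergic neurons, in pools 2 and 3, and 9 of 10 receptor genes on none.

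Serotonin had 1 of 14 genes detected, gata2a, which is also on the midbrain list. tph2, its neuronal synthesis gene, read -0.28, -1.41 and -0.45 and was called in pools 2 and 3, tph1a on 1 array and tph1b on none. Both serotonin transporter genes, slc6a4a and slc6a4b, were called on no array. hdc, the synthesis gene of histamine, was detected at 0.86, 0.86 and 1.11, while the 4 histamine receptor genes were called on none. Without pool 1, dopamine had 5 of 16 genes detected, serotonin 2 of 14 and noradrenaline 1 of 12, beside 56.3% of all named genes. These transmitters are made in small nuclei, and whether their transcripts were rare or their probes dim was not tested.

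Melatonin had 1 of 8 genes, asmt2 (1.00 ± 0.48), of the last step of its synthesis, and 0 of 5 receptors. The purine receptors had p2rx1 (0.19 ± 0.50) as 1 of 12. Of 5 genes of endocannabinoids and nitric oxide, faah2a, napepld and mgll, enzymes of endocannabinoid turnover, were detected at 2.14 ± 0.54, 1.61 ± 0.36 and 0.08 ± 0.56. bdnf, the neurotrophin, read 1.73, 0.91 and 1.86 and was 1 of 6 neurotrophic factor genes detected on all 3 arrays, with 4 more on some. Without pool 1, melatonin had 2 of 8, purine receptors 2 of 12 and neurotrophic factors 3 of 6 genes detected.

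Neuropeptide precursors were detected for 18 of 48 genes on the array (37.5%, against 43.4% of all named genes). oxt, the oxytocin precursor (isotocin of fish), was the brightest by the median of a gene's detected probes, at 5.29, 4.50 and 4.64. sst6.1 and sst1.1, of the somatostatin family, read 3.99, 4.16 and 4.52, and 3.51, 3.52 and 4.17. cart2, of the appetite-suppressing CART peptides, read 3.23, 2.88 and 3.80. oxt was highest in pool 1, and both somatostatin genes and cart2 in pool 3.

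adcyap1b, the precursor of the peptide PACAP, read 3.59, 2.38 and 3.30. By its brightest detected probe alone it averaged 5.43, above oxt at 4.81. avp, the vasopressin precursor (vasotocin of fish), read 2.76, 3.06 and 3.28, nucb2a, of nesfatin, 2.78, 2.79 and 2.99, and penka, an enkephalin precursor, 2.5, 2.67 and 2.78. The last 3 varied least of the list's brighter members, with s.d. of 0.26, 0.12 and 0.14. By its brightest detected probe alone, penka averaged 3.49, against 2.65 by the median. trh, of thyrotropin-releasing hormone, read 1.52, 1.87 and 2.17, and npy, of the appetite-stimulating neuropeptide Y, 1.34, 1.57 and 2.01. cbln2b, pnocb, pyya, vip, nppcl, npb, uts1 and crhb made up the rest, between 1.78 for cbln2b and -0.10 ± 0.45 for crhb, the precursor of the stress peptide corticotropin-releasing hormone.

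A further 10 precursors were called on some arrays. pomca, the proopiomelanocortin gene, read -0.89, 0.53 and 0.46, and pdyn, of the dynorphins, -0.74, 0.25 and 0.20, and both were called in pools 2 and 3. nucb2b, vipb, cart4, cbln4, qrfp and pth2 were also called on 2 arrays, and sst2 and npffl on 1. The other 20, among them hcrt (hypocretin), gnrh2 and gnrh3 (gonadotropin-releasing hormones), ghrh, npvf, grp and ghrl, were called on none. Left without pool 1, the count of detected precursors was 26 of 48. The secretory granule genes had 5 of 7 detected, with scg2b, a granin, at 3.93, 3.66 and 4.1, pcsk1nl, related to an inhibitor of prohormone convertase, at 3.08 ± 0.33 and chga, another granin, at 2.14 ± 0.78.

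**Figure D3:**
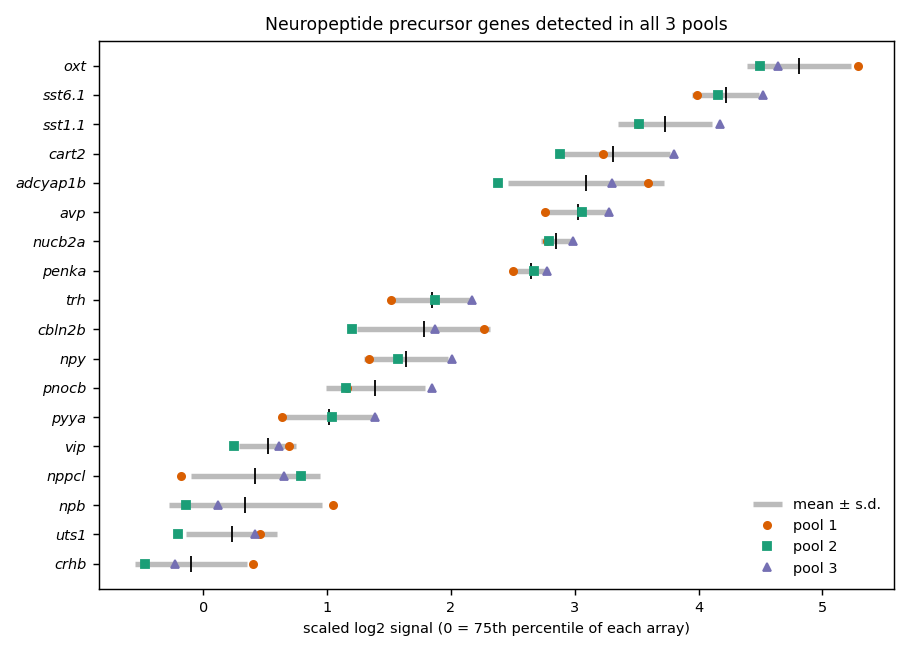
Scaled log2 signal (x axis) of the 18 neuropeptide precursor genes detected in all 3 untreated pools (y axis), with a symbol for each pool, a tick for the mean and a grey bar for the mean ± s.d. of 3 arrays. oxt lies highest at 4.81 ± 0.42 and crhb lowest at -0.10 ± 0.45; the spread between pools is as wide as the step between most neighbours in the order.

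Few pituitary genes were detected. Of 15 genes, 1 was detected on all 3 arrays (6.67%), and 4 without pool 1 (26.7%, against 56.3% of all named genes). The hormone genes gh1, called in pool 2 alone, fshb and pomca, called on 2 arrays, and prl, prl2, smtla, smtlb, tshba and cga, called on none, were not detected on all 3 arrays. These genes are among the most strongly transcribed of the pituitary. The dissection of the gland is not described in the sources used here. Whether the gland was part of the pools or the probes were dim was not tested.

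Transcripts of the eye were bright in all pools and differed between them. The lens list had 20 of 23 members detected (87.0%). crygs1, a γ-crystallin, read 9.59, 7.24 and 7.62, crybb2, a β-crystallin, 8.81, 7.36 and 7.35, and crygm3, another γ-crystallin, 8.01, 7.52 and 6.94. cryaa, the α-crystallin that defines the lens, read 3.95, 3.17 and 1.18. Pool 1 was the highest for each of these 4 genes.

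Photoreceptor transcripts included pde6hb, the inhibitory subunit of the cone phosphodiesterase, at 7.50, 7.06 and 6.53. The cone opsin genes opn1lw2 (red) and opn1sw2 (blue) read 6.22, 5.91 and 4.81, and 5.42, 5.81 and 4.69. gnat1, the rod transducin gene, read 2.70, 4.34 and 2.77. crx, a photoreceptor factor shared with the pineal organ, read 4.05, 3.89 and 2.59. The pineal opsin gene exorh was called in pool 2 alone and aanat2, the pineal enzyme of melatonin rhythm, on no array. Of 40 genes on the list, 10 more were called on some arrays and 8 on none. Without pool 1, 23 of 40 were detected (57.5%), near the 56.3% of all named genes.

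Skeletal muscle genes lay between -0.45 and 9.34 where detected. tnnt3b, a fast troponin T, read 7.88, 7.55 and 8.32, ckmb, a muscle creatine kinase, 8.44, 7.27 and 8.0, and pvalb4, a parvalbumin, 8.31, 6.58 and 7.51. atp2a1, the calcium pump of fast fibres, read 7.28, 6.91 and 7.56. ckma was not counted, since its spot in pool 2 was an outlier, and read 7.68 and 7.72 in pools 1 and 3.

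Of the skin genes, krt91, a keratin, read 9.22, 7.74 and 8.26, icn, a calcium-binding protein of epidermis, 9.44, 7.42 and 8.07, krt5 8.86, 6.54 and 6.97 and krt4 7.17, 6.76 and 7.33. krt8, with an outlier spot in pool 2, read 8.35 and 8.48 in pools 1 and 3. Pool 1 was highest for krt91, icn and krt5, and pool 3 for krt4. Every member of the skin list was called on at least 1 array.

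Of 17 erythrocyte genes, 9 were detected (52.9%, against 43.4% of all named genes) and 7 were called on no array. Without pool 1 the share was 58.8%, near the 56.3% of all named genes. hbba2, an adult β-globin, read 4.47, 3.48 and 5.32, and hbaa2, an adult α-globin, 4.17, 3.23 and 4.56, with pool 2 lowest for both. Liver had 2 of 17 genes detected on all 3 arrays, 4 of 17 without pool 1 or without pool 3, and 13 of 17 called on at least 1 array (76.5%, against 67.7% of all named genes). Those on all 3 arrays were rbp4, a retinol carrier, at 6.19, 6.73 and 6.38 and cp, ceruloplasmin, at 0.69, 3.70 and 2.02. Cartilage and bone had 6 of 13 genes detected (46.2%, near the 43.4% of all named genes), led by bglap (osteocalcin) at 2.53 ± 1.40.

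Of the 36 lists, 17 had a larger share of detected members than all named genes. Reference genes gave 21 of 22, with hprt1 called on no array. gapdh read 8.99, 7.74 and 8.21, actb1 7.73, 6.51 and 6.66 and tbp 1.72, 1.92 and 2.01. gapdh and actb1 were highest in pool 1, and tbp lowest there.

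Zebrafish carry many gene pairs from a genome duplication in the ancestor of teleosts, which often end in a and b. Pairs were formed by that ending alone, so they also hold genes that are not such duplicates, for example c1qa and c1qb, which encode different chains of C1q. Of 1123 pairs with both symbols on the array, both members were detected in 346 (30.8%), 1 in 413 (36.8%) and neither in 364 (32.4%). Among the pairs on the lists, 26 of 92 had both detected, 28 had 1 and 38 had none. The SNARE genes snap25a and snap25b were both detected, at 5.35 ± 0.52 and 2.55 ± 0.32. Only 1 member was detected on all 3 arrays for adcyap1b (not adcyap1a), sypb (not sypa), cbln2b (not cbln2a), mfsd2ab (not mfsd2aa), gria2b (not gria2a) and stxbp1a (not stxbp1b). Probes of close copies can bind each other's transcripts, and the level of a pair member is uncertain to that extent.

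The 3 pools agreed well over detected probes, and pools 2 and 3 most. Across the 9833 detected probes, Pearson's r was 0.894 between pools 1 and 2, 0.912 between pools 1 and 3 and 0.958 between pools 2 and 3. Spearman's rho was 0.851, 0.872 and 0.942. These values run across probes, which share their array and span a wide range of brightness, and which are not replicates. The median absolute difference was 0.52 between pools 1 and 2, 0.45 between pools 1 and 3 and 0.41 between pools 2 and 3, on the log2 scale. Within a factor of 2 lay 77.1%, 84.7% and 90.8% of these probes. Over all 43548 probes with a value, most of them not detected, the shares were 36.3%, 48.5% and 85.9%, and the median absolute differences 1.61, 1.01 and 0.79. Of the probes called in pool 1, 95.5% were also called in pool 2, which were 57.2% of the calls of pool 2.

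The s.d. of a detected gene over the pools had a median of 0.35, with quartiles of 0.22 and 0.52. It exceeded 1 in 189 of 4989 genes (3.79%). Repeated features of 1 probe on the same array had a median s.d. of 0.0782, 0.122 and 0.143 in pools 1, 2 and 3. These values rest on only 20, 32 and 26 probes with at least 3 features well above background. They lay below the median s.d. between arrays, which covers all 4989 detected genes.

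**Figure D4:**
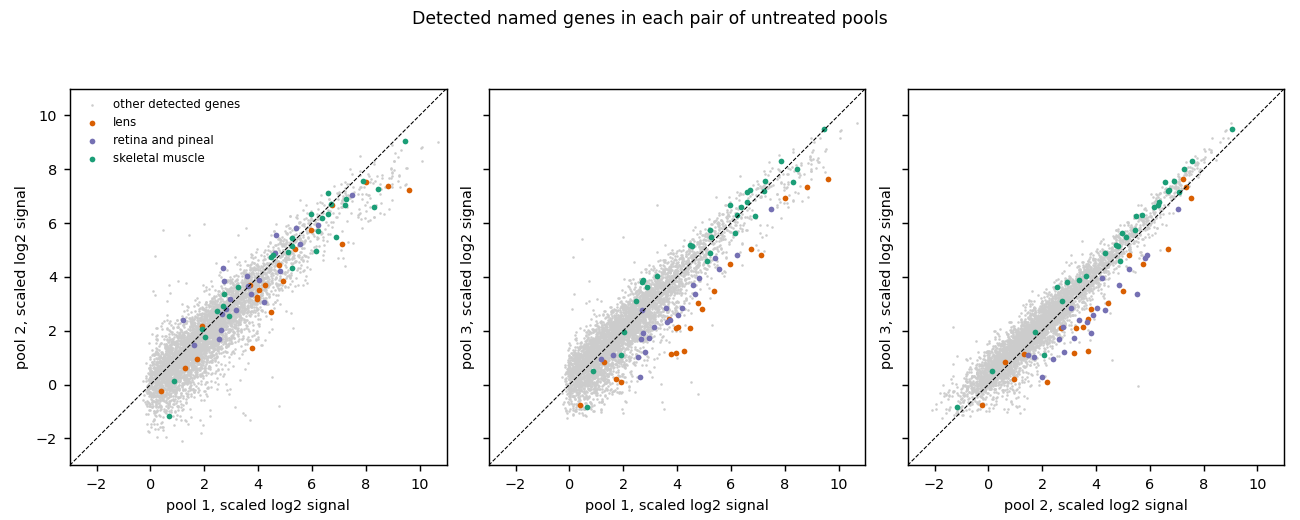
Scaled log2 signal of each detected named gene in 1 untreated pool (y axis) against another (x axis) for the 3 pairs of pools, with lens, retina and muscle genes in colour and equality dashed. Pearson's r over detected probes was 0.894, 0.912 and 0.958 from left to right; most lens and retina genes lie below the line where pool 3 is plotted.

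The 10 genes of largest spread fell into a pair of patterns. In 6 of them pool 1 was the highest. ano10b, of the anoctamin family, read 4.77, -0.80 and -0.35 (s.d. 3.09), prpsap1 4.53, 0.28 and 0.10, mvb12bb, of the ESCRT-I complex, 3.51, -1.12 and -0.89, and med17, a Mediator subunit, 3.45, -1.07 and -0.65. arcn1a, a coatomer subunit, read 3.71, -1.30 and 2.15, and gnao1a, a G protein subunit of neurons, 3.13, -0.82 and 0.96, with pool 2 lowest. The pool 2 values of ano10b, mvb12bb, med17, arcn1a and gnao1a lay below the 95th percentile of the negative controls of that array. None of these 6 genes was on a list.

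In the other 4, genes known from the gut or pancreas, pool 2 was the highest. chia.1 and chia.3, acidic chitinases, read 0.45, 5.74 and 5.42, and 2.00, 5.97 and 5.47. fabp1b.1, a fatty acid-binding protein, read 0.15, 4.76 and 4.73, and prss1, trypsin, 1.42, 5.56 and -0.04. Pools 2 and 3 were alike for the chitinases and fabp1b.1, and pool 3 was lowest for prss1. Without pool 1, 2 of the 10 genes stayed among the 10 of largest spread.

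Gene lists deviated together on single arrays. For each detected gene the deviation from its own mean was taken, and the median over all 4989 genes was 0.07, -0.15 and 0.10 in pools 1, 2 and 3. Lens genes had medians of 0.77, 0.09 and -0.97. Pool 1 was the highest for 19 of 20 lens genes and pool 3 the lowest for 18. Over all 4989 detected genes, pool 1 was highest for 2167 and pool 3 lowest for 770. Retina and pineal genes had medians of 0.45, 0.37 and -0.71, and pool 3 was lowest for 21 of 22. The amount of eye tissue left on each brain was not recorded in the sources used here, and its part in these values was not tested.

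Skin genes had medians of 0.44, -0.26 and -0.16 and muscle genes of 0.03, -0.22 and 0.20. Neuron genes had medians of 0.08, -0.38 and 0.16, with pool 2 lowest for 25 of 35, where it was also lowest for 2634 of all 4989 detected genes, and oligodendrocyte genes of 0.07, -0.33 and 0.40. Radial glia genes had medians of 0.34, -0.36 and -0.01. After quantile normalization over the 3 arrays, lens genes had medians of 0.65, 0.38 and -1.04, retina genes of 0.27, 0.53 and -0.77 and neuron genes of -0.01, -0.23 and 0.09, so that pool 3 was still lowest for both eye lists and pool 2 for neurons, while the sign for neurons in pool 1 turned. The lowest pool changed for skin genes, with medians of 0.34, -0.04 and -0.18, and for muscle genes, with -0.13, -0.01 and 0.14.

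**Figure D5:**
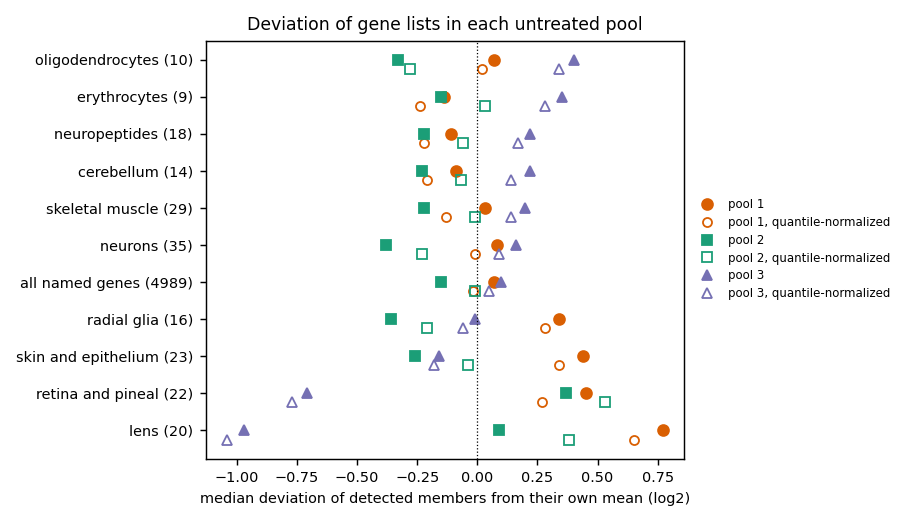
Median deviation of the detected members of each list from their own mean over the 3 arrays (x axis, log2) for 10 lists and all named genes (y axis, number of detected genes in brackets), filled for 75th percentile scaling and open for quantile normalization. Lens and retina genes lie at -0.97 and -0.71 in pool 3, while the filled points of the other lists shown, in all pools, lie between -0.38 and 0.44.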

How the data were processed

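RNA from 3 pools of untreated zebrafish brain (C) was labelled with Cy3 and hybridized to Agilent 44K arrays. The authors deposited the scanner output as intensities on a linear scale, background-subtracted and detrended by Feature Extraction (version 10.7.3.1 and design grid 019161 per the file headers, whereas the methods give another version and design), with no scaling between arrays. The deposited series table holds the natural log of each background-corrected spot intensity, which was checked on every value of the C columns (tolerance 0.001). Its other 9 columns and the other 9 arrays were not used.

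Control spots and spots marked as outliers were left out, repeated features were averaged on the log2 scale, and the 75th percentile of each array was subtracted. Probes were named through RefSeq accessions in current gene tables (16438 of 17415 mRNA accessions matched), and probes with other names stayed unnamed. A gene took the median of its detected probes, or of all its probes where none was detected. Genes on a list without a matched probe were not analysed here. No tests were run, since there was 1 group. The number of arrays limits the precision.

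The text names the 20 brightest genes, the 10 of largest s.d., up to 4 detected members of each role in a list with the highest signal and defining members called on no array. A few genes that this rule names are not reported here. Other genes were named after their values had been seen. The members and lists were chosen with earlier results of these data known. Lists of intestine and pancreas, heart, kidney and gonad were written after the values had been seen. Alternatives were other detection rules, percentiles, quantile normalization and normexp with an offset of 50 in limma 3.58.1 (R 4.3.3), for which the median foreground was used because the output holds no mean signal. In simulated arrays of 11484 genes, 84.5% of 200 genes made more variable were among the 200 of largest s.d. Those 200 were bright single-probe genes given 5 times the s.d. of 0.35 set for all others, with independent noise. On the real arrays the spread differed between genes and lists deviated together, so this share does not carry over to the ranking by s.d. above.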

Additional observations from a re-analysis of the deposited data

How the results depend on the processing

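The number of detected genes depended on the rule. It was 4989 of 11484 with all 3 arrays required, 6585 with at least 2 and 7778 with at least 1. It was 7075 by the software's test against background alone, 5466 by the 95th percentile of the negative controls, 5002 with outlier spots kept and 3625 where a majority of a gene's probes had to be called. Leaving out each array in turn gave 5007 to 6461, the highest without pool 1, whose array was the dimmest. Some lists lost most under the majority rule. Acetylcholine then had 1 of 14 genes detected, dopamine 0 of 16 and neurotrophic factors 0 of 6, beside 31.6% of all named genes. Pairs with both members detected numbered 346, and 613 with at least 1 array, or 348 to 477 with an array left out. The lists above the share of all named genes numbered 17 of 36, and 16 to 20 over the alternatives. They were not the same lists throughout. With at least 1 array, liver (76.5%), diencephalon and hypothalamus (73.1%) and neurotrophic factors (83.3%) came to lie above the 67.7% of all named genes. Erythrocytes (58.8%) and endocannabinoids and nitric oxide (60.0%) came to lie below it. Between 15 and 20 of the 20 brightest genes were shared with each alternative. The levels were less steady. Of 42 levels checked, 27 moved by at least their own s.d. with normexp, 32 from the series table and 39 with the 50th percentile. None did so with quantile normalization. With normexp, oxt averaged 3.76 and sst6.1 3.72, and adcyap1b, at 2.15, lay below avp at 2.31 and nucb2a at 2.38. The lowest Pearson's r was 0.894, and 0.877 to 0.955 over the alternatives. The median s.d. was 0.54 with the 50th percentile, 0.33 with quantile normalization, 0.36 with normexp, 0.42 from the series table and 0.26 without pool 1. Of the 10 genes of largest spread, 6 were shared with the 50th percentile, 10 with quantile normalization and 2 without pool 1. Without pool 3, 26 of 40 retina genes (65.0%) and 21 of 23 lens genes (91.3%) were detected, against 44.4% of all named genes. Without pool 1 the shares were 57.5% for retina and 87.0% for lens genes, against 56.3%, so that retina genes lay near all named genes. No paired analysis was possible because only 1 group was used.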

Other observations

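The lists of other organs, written after the values had been seen, were detected on all 3 arrays in few cases. Intestine and pancreas had 7 of 31 genes detected on all 3 arrays, the heart 3 of 14, kidney and ionocytes 2 of 15 and the gonad 0 of 23, beside 43.4% of all named genes. A further 13 of the 31 intestine and pancreas genes were called on some arrays. The share called on at least 1 array was thus 64.5%, near the 67.7% of all named genes. For the heart, kidney and ionocytes and the gonad, a further 4, 6 and 5 genes were called on some arrays. The 7 genes of intestine and pancreas included chia.3, chia.1, fabp1b.1, lgals2b, prss1 and slc13a2, and their median deviations were -2.11, 1.49 and 1.08 in pools 1, 2 and 3. chia.1, chia.3, fabp1b.1 and prss1 led to the choice of this list, so these values are a description only. fabp10a, the fatty acid-binding protein of liver, read 0.86, 5.04 and -2.61 and was called in pools 1 and 2, and apoa1a, of high-density lipoprotein, read -2.35, 2.81 and 2.1 and was called in pools 2 and 3. The origin of these transcripts was not tested.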
